A study of Mus musculus with 2 samples.

Results

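Oxidative phosphorylation subunit genes were examined for Tcf1 peaks at their start sites in naïve CD8+ T cells. The members were the protein-coding autosomal genes of the mm9 annotation whose symbol starts with Nduf, Uqcr, Atp5, Sdha, Sdhb, Sdhc or Sdhd, or with Cox followed by a digit from 4 to 8. This rule took 91 of 21418 protein-coding autosomal genes, under 90 symbols, because Ndufb8 is annotated with 2 gene identifiers that overlap on chromosome 19. By symbol they comprised 37 genes of complex I, 4 of complex II, 8 of complex III, 17 of complex IV, 16 of complex V and 6 assembly factors. The other 3, Cox4nb, Atp5s and Atp5sl, share a prefix with subunits without being counted as subunits here.

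Tcf1 ChIP-seq had been done with 1 rabbit antiserum on 1 WT library and 1 Tcf1-deficient library from sort-purified splenic naïve CD8+ T cells (GFP+ TCRbeta+ CD62Lhi CD44lo-med), without replicates. The labels give the genotypes as wild type and, for the control, Tcf1-/-Lef1-/-. By the series design both came from mice with hCD2-Cre, a Cre active in lymphocytes, and Rosa26-lsl-GFP, with Tcf1/Lef1 either wild-type or double floxed, whereas the methods of the study name WT and Cd4-Cre+ Tcf7 fl/fl mice, in which Lef1 is intact. Which of these the control cells were cannot be told from these sources, and the labels give no age or number of mice. The 2 libraries held 36938606 and 27625250 fragments after removal of duplicates, and the peaks were called on WT against Tcf1-deficient. A peak list measures no expression, so the labelled cell type was not checked against markers.

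Oxidative phosphorylation is carried out in the inner mitochondrial membrane. Complex I (NADH dehydrogenase), complex II (succinate dehydrogenase), complex III (cytochrome bc1) and complex IV (cytochrome c oxidase) pass electrons to oxygen, and complex V (ATP synthase) uses the resulting proton gradient to make ATP. Most subunits are encoded in the nucleus and some in mitochondrial DNA. Naïve T cells are known to rely mainly on this pathway for their energy. Tcf1, encoded by Tcf7, is a DNA-binding protein of the Tcf/Lef family.

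A gene is called bound here when the summit of at least 1 of the 22286 deposited peaks lay within 1 kb of any of its annotated start sites. All of them had passed the p limit of the caller, 1e-05, and those enriched at least 4-fold with a q value under 0.05 are called high-confidence. Of the 91 members 68 were bound, or 74.7%, and 59 (64.8%) had a high-confidence peak. Over all protein-coding autosomal genes the shares were 37.5% and 33.6%. The members' shares were above the background at both stringencies. With peaks of at least 8-fold only, the share was 17.6% (Wilson 95% interval 11.1 to 26.7) in members and 12.1% in all genes, which lies within that interval. With 1 library per group these are counts without a test, and a gene not called bound is only one without a listed peak at this depth.

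**Figure D1:**
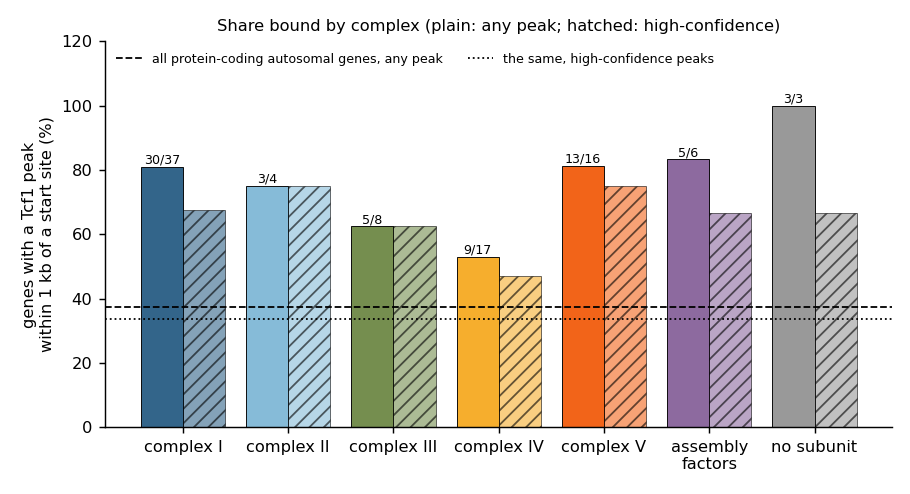
Percentage of genes with a Tcf1 peak within 1 kb of a start site, by complex, for any deposited peak (plain bars, with counts) and for high-confidence peaks (hatched bars). The dashed and dotted lines are the shares of all protein-coding autosomal genes, 37.5% and 33.6%. With these settings each class lies above its line, and complex IV, at 9 of 17 genes, is the lowest.

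Bound shares were 30 of 37 genes (81.1%) for complex I, 3 of 4 (75%) for complex II, 5 of 8 (62.5%) for complex III, 9 of 17 (52.9%) for complex IV and 13 of 16 (81.2%) for complex V. Among the assembly factors 5 of 6 were bound. The classes are small, and no difference between them was tested. Some fell below the background under stricter rules. With peaks of at least 8-fold only, complexes II and III were at 0% and complex IV at 5.88%, against 12.1% of all genes, and with the nearest start site only, complex III was at 25% against 32.5%.

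Pileup, the number of WT fragments over a summit, had a median of 37 in the strongest peak of bound members (interquartile range 31 to 49, lowest 20, highest 120). Over all 8027 bound protein-coding autosomal genes the median was 41 (31 to 59). A pileup of 50 or more was reached by 16 of the 68 bound members, or 23.5%, and by 35.8% of all bound genes. The median fold enrichment was 5.92 in members and 6.39 in all bound genes. The level expected from the Tcf1-deficient library was at its genome-wide floor of 5.42 fragments at 58 of the 71 member peaks and at most 8.02 at the others, so the fold enrichment followed the WT pileup. Counting error was large at these heights, and 15 of the 68 strongest peaks lay within 1 Poisson SD of the pileup needed for the fold minimum.

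**Figure D2:**
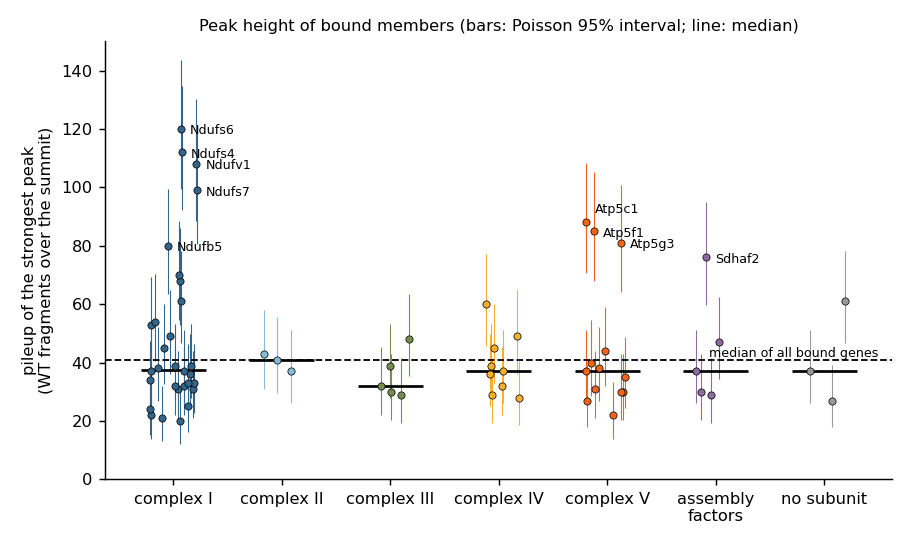
Pileup of the strongest start-site peak of each bound member, in WT fragments over the summit, by complex. Points are genes, vertical bars exact Poisson 95% intervals, short lines medians, and the dashed line is the median of all bound genes, 41. Ndufs6, Ndufs4, Ndufv1 and Ndufs7 of complex I stand highest, at 99 to 120.

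The tallest member peaks were those of complex I genes. The peak of Ndufs6 (ENSMUSG00000021606.6), an accessory subunit that binds zinc, spanned chromosome 13, 73465777 to 73466310, with its summit 82 bp upstream of the start site. It had 120 WT fragments (Poisson 95% interval 99.5 to 143) against a control level of 5.42, a fold enrichment of 18.9. Ndufs4 (ENSMUSG00000021764.6), another accessory subunit of the same part of the complex, had 112 fragments (92.2 to 135) against 6.69, with the summit 12 bp upstream. For Ndufv1, which carries the FMN that accepts electrons from NADH, the pileup was 108 (88.6 to 130) against 5.42. Ndufs7, an iron-sulfur subunit near the quinone site, followed with 99 fragments (80.5 to 121). The intervals of these 4 genes overlapped each other, and none reached down to the members' median of 37. Their fold enrichments, 14.7 to 18.9, were with the 13.9 of Atp5c1 the 5 largest among members.

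Other redox core subunits of complex I also had high-confidence peaks. The pileup was 70 at Ndufv2, 61 at Ndufs8, 54 at Ndufs3 and 32 at Ndufs1. Ndufs1 carries several iron-sulfur clusters, and its summit lay 177 bp upstream, nearer to the start site of Eef1b2. Ndufa7 had the smallest peak of all members, with 20 fragments (12.2 to 30.9) and a fold enrichment of 3.27, followed by Ndufb2 with 21 (13.0 to 32.1). The summits of Ndufs3 and Ndufa7 were also nearer to the start site of a neighbour, Kbtbd4 and Rps28.

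In complex II, Sdhc and Sdhd, the membrane anchors, had pileups of 43 and 37, and Sdhb, the iron-sulfur subunit, had 41. Their Poisson intervals overlapped almost fully. Sdha, the flavoprotein that oxidizes succinate, was not bound, and its nearest summit lay 6.93 kb downstream of a start site. In complex III, Uqcrq had 48 fragments, Uqcrh 39, Uqcr10 32, Uqcrc1 30 and Uqcrfs1, the Rieske iron-sulfur protein, 29. The summits at Uqcrq, Uqcrh and Uqcr10 lay nearer to the start sites of Gdf9 (20 bp), Lrrc41 (88 bp) and Zmat5 (53 bp). Uqcrc1 and Uqcrc2 are the paired core proteins of this complex, and Uqcrc2 was not bound, with its nearest summit 26.7 kb away. Uqcrb and Uqcr11 were not bound either. None of these 8 bound genes reached a pileup of 50.

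In complex IV, peaks were read by isoform. Cytochrome c oxidase has subunits with a broadly expressed form and a form restricted to heart and skeletal muscle, testis or other tissues. None of the 8 isoforms listed as restricted (Cox4i2, Cox6a2, Cox6b2, Cox7a1, Cox7b2, Cox8b, Cox8c and, by symbol in complex I, Ndufa4l2) was bound. All 8 lack CpG-rich start sites (defined with the composition values), and of all protein-coding autosomal genes without them only 15.1% were bound, so the 0 of 8 is not read as a result about isoforms. Their nearest summits lay from 8.33 kb (Cox8b) to 355 kb (Cox7b2) away. The 6 autosomal broadly expressed partners were bound by high-confidence peaks, with pileups of 49 in Cox7a2, 37 in Cox4i1, 37 in Ndufa4, 36 in Cox8a, 32 in Cox6a1 and 28 in Cox6b1. The Ndufa4 summit lay 287 bp from its own start site but 76 bp from that of Phf14. The Cox4i1 peak was shared with Cox4nb, so neither peak can be assigned to one gene. Of these 6 partners 5 have CpG-rich start sites, a class of which 64.7% of all genes were bound and 58.4% had a high-confidence peak. Cox7b, the broadly expressed partner of Cox7b2, is X-linked and so no member, and it had no peak within 1 kb of a start site. The largest complex IV peak was at Cox7c, with 60 fragments (45.8 to 77.2), and Cox5a had 45. Cox5b, with 29 fragments against a control level of 7.35, was the one bound complex IV gene below the fold minimum. Cox7a2l, a relative of Cox7a2 known for its part in respiratory supercomplexes, had 39. Cox6c was the only unbound complex IV gene outside the restricted list.

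For 3 pairs, chosen after the values were seen, the 100 bases before the start site are printed from mm9 on the transcribed strand, 5′ to 3′, with each CG in capitals, the broadly expressed and bound form first.
Cox6a1, chr5:115798991-115799090, minus strand: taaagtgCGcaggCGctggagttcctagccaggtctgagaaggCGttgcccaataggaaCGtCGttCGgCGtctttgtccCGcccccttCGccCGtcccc
Cox6a2, chr7:135349881-135349980, minus strand: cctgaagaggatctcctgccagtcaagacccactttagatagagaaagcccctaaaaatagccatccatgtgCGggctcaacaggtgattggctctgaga
Cox7a2, chr9:79607661-79607760, minus strand: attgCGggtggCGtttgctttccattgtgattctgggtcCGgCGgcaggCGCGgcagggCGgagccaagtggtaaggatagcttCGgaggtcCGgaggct
Cox7a1, chr7:30969090-30969189, plus strand: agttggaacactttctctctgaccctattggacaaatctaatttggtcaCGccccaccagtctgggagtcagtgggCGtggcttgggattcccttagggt
Cox8a, chr19:7292107-7292206, minus strand: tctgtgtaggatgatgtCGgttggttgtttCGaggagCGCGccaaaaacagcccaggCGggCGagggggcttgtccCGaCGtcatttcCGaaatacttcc
Cox8b, chr7:148086346-148086445, minus strand: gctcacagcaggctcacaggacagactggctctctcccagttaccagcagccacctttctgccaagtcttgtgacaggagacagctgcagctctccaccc
The stretch held 10 CG in Cox6a1 and 1 in Cox6a2, 9 in Cox7a2 and 2 in Cox7a1, and 9 in Cox8a and 0 in Cox8b.

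In complex V the F1 part makes ATP and the Fo part conducts protons. The largest peaks were at Atp5c1, the rotating gamma subunit, with 88 fragments (70.6 to 108), at Atp5f1, a subunit of the peripheral stalk, with 85 (67.9 to 105), and at Atp5g3, a ring subunit of Fo, with 81 (64.3 to 101). These 3 did not overlap the interval of the next, Atp5d, at 44 (32.0 to 59.1). The Atp5d summit lay in an intron, 44 bp upstream of an internal start site. Within 1 kb of the furthest upstream Atp5d start site the only peak had 23 fragments. The genes of the other ring subunit copies, Atp5g1 and Atp5g2, which encode the same mature protein as Atp5g3, had 37 and 40 fragments. Their intervals (26.1 to 51.0 and 28.6 to 54.5) lay under that of Atp5g3. Atp5a1, the alpha subunit, had 31 fragments, and Atp5b, the catalytic beta subunit, was the only F1 gene without a peak. The smallest peaks were at Atp5e with 22 and Atp5h with 27. Atp5j2 was not bound, nor was Atp5l-ps1, a gene annotated as protein-coding whose symbol marks a pseudogene.

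Among the assembly factors, Sdhaf2, which helps attach the flavin to Sdha, had a pileup of 76 (59.9 to 95.1), Sdhaf1 47, Ndufaf4 37, Ndufaf1 30 and Ndufaf3 29. Ndufaf2 was not bound. Of the genes that only share a prefix, Atp5sl had 61 fragments, Cox4nb 37 and Atp5s 27. Cox4nb and Cox4i1 were one case, since a single peak had its summit 89 bp from the start sites of both.

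For the 23 unbound members the nearest deposited summit lay at a median of 13.3 kb from a start site. The nearest of all was 2.90 kb downstream of an Atp5b start site, with a pileup of 22 and a fold enrichment of 3.58. A limit of 2.5 kb therefore gave the same 74.7%. The other unbound members of complex I were Ndufa8, Ndufb7, Ndufc1, Ndufc2 and both Ndufb8 identifiers. Just inside the limit was a weak peak 978 bp downstream of the Ndufa13 start site, with 22 fragments, and one 854 bp upstream of Atp5d with 23. Both summits lay nearer to the start site of a neighbour, Tssk6 (604 bp) and Dos (131 bp). Both genes also had a taller peak within the limit.

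Most members have CpG-rich start sites, which were defined by a GC content of at least 50% and an observed over expected CpG of at least 0.6 over 500 bp on each side of the furthest upstream start site. This held for 70 of the 91 members (76.9%) and for 45.1% of all protein-coding autosomal genes. Of the 70 members, 60 (85.7%) were bound, against 64.7% of all genes with such start sites. Of the other 21 members 8 (38.1%) were bound, against 15.1%. The members' share was above that of all genes in both classes. This split was chosen after seeing the data, and the part of base composition and of transcription in these shares was not tested. The unbound members with CpG-rich start sites were Ndufa8, Ndufb7, 1 of the Ndufb8 identifiers, Ndufc1, Ndufc2, Sdha, Uqcrc2, Cox6c, Atp5b and Ndufaf2.

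**Figure D3:**
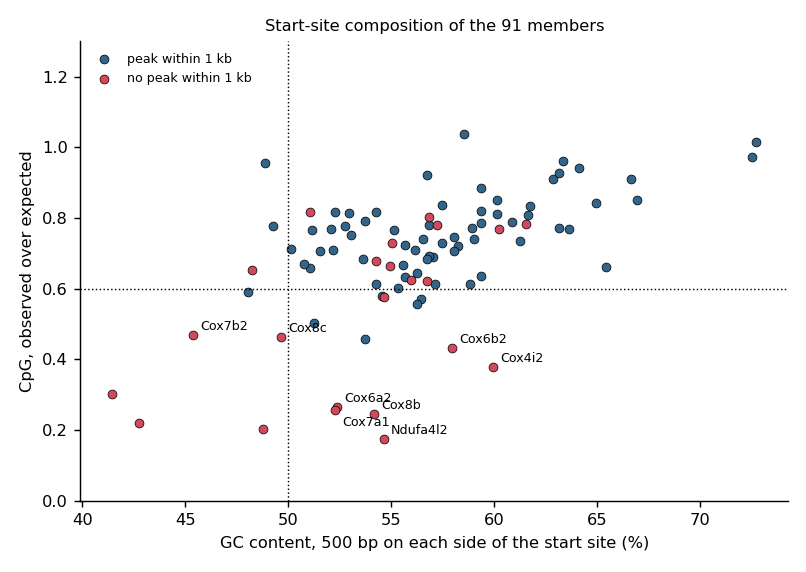
GC content (horizontal, %) and observed over expected CpG (vertical) over 500 bp on each side of the start site for the 91 members, blue where a Tcf1 peak lay within 1 kb and red where none did. Dotted lines mark 50% and 0.6. The 8 restricted isoforms, labelled, are all red and all under 0.6.

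Start sites of other housekeeping genes were read in the same way. Of 77 mitochondrial ribosomal protein genes 59 (76.6%) were bound, with a median pileup of 44, and of 51 proteasome genes (symbols starting with Psm) 39 (76.5%), with a median of 41. Both shares lie within the Wilson 95% interval of the members' 74.7% (64.9 to 82.5), and no difference between the lists was tested.

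Summits lay close to the start site, though the rule keeps only those within 1 kb. Distances are to the nearest annotated start site of the gene. The median distance of the strongest peak was 58 bp in bound members and 86 bp in all bound genes. In members 51 of 68 summits (75%) were upstream, against 69.5% of all bound genes, and 44 (64.7%) were within 100 bp, against 54.6%. The median signed position was 48 bp upstream. The summit of Atp5k fell on the annotated start base. By annotation 34 of the strongest summits were intergenic, 29 in an untranslated part of an exon and 5 in introns. The 5 strongest peaks furthest from a start site were those of Ndufa13, 704 bp upstream, Sdhaf1, 672 bp downstream, Ndufv2, 583 bp upstream, Ndufs5, 451 bp downstream, and Atp5s, 392 bp downstream. Ndufs5 and Atp5s had these summits in an intron of their own, and the Sdhaf1 summit lay 37 bp from the start site of E130208F15Rik. Members with 2 peaks within the limit were Ndufa11, Ndufa13, Atp5d and Sdhaf1.

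**Figure D4:**
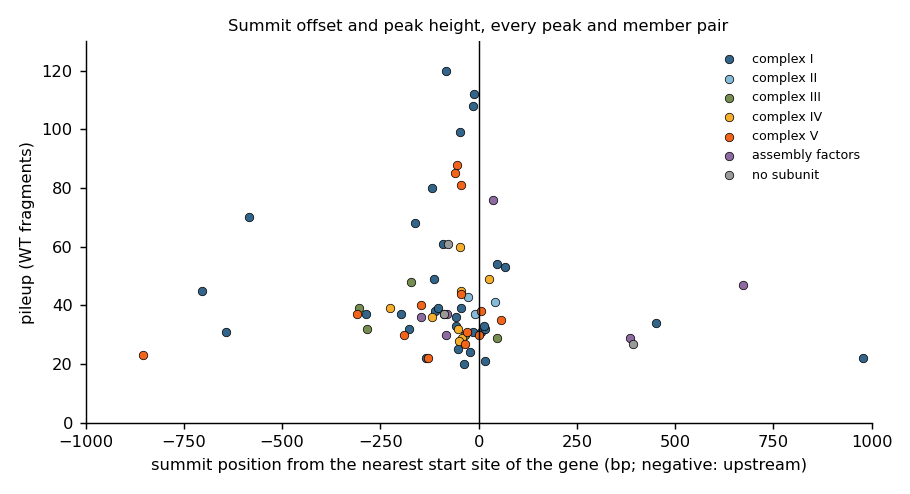
Summit position from the nearest start site of the gene (horizontal, bp, negative upstream) and pileup (vertical, WT fragments) for every pair of a peak and a member, coloured by complex. All peaks of 80 or more fragments lie upstream of the start site, the furthest at 119 bp.

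Several members share their start region with a neighbour. The strongest peak of 26 of the 68 bound members (38.2%) also lay within 1 kb of the start site of another protein-coding gene, against 24.6% of all bound genes. At 13 of the 68, a start site of another gene was nearer to the summit than that of the member. The tallest shared peaks were at Atp5c1, whose summit was 27 bp from the start site of Kin, at Atp5f1 and Wdr77 (34 bp), at Ndufb5 and Mrpl47 (276 bp), at Sdhaf2 and Cpsf7 (72 bp) and at Ndufa5 and Asb15 (411 bp). A pair of functional neighbours was Atp5j and Gabpa, the gene of an ETS factor known for its sites in oxidative phosphorylation promoters, which shared a peak of 38 fragments. A peak at such a region cannot be assigned to one gene. Counting a summit only for the gene with the nearest start site left 61.5% of members bound, against 32.5% of all genes.

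Exact matches to 6 motif cores were counted on both strands within 100 bp of the summits of the 71 member peaks, and of all 8060 peaks at start sites of protein-coding autosomal genes, which include them. The Tcf/Lef core ATCAAAG was found at 0 of 71 member summits, against 4.55% of all. A count of 0 allows a share of up to 4.22% by 3 counts, which is below 4.55%, and up to 5.13% by the Wilson interval, which is above it, so the 2 limits differ on whether the members' share was lower, and no difference is read from it. Within 200 bp it was found at Ndufa5 and Sdhd, at 110 and 139 bp from the summit. The NRF1 core GCATGCG, bound by a regulator of nuclear respiratory genes, was found at 9 member summits, or 12.7% (Wilson 95% interval 6.81 to 22.4), against 4.55% of all (4.12 to 5.03). The YY1 core ATGGCGG was also at 9, against 6.77% of all. The ETS core CGGAAGT was at 12, or 16.9% (9.94 to 27.3), against 13.2%, and the Runx core TGTGGTT at 1, or 1.41%, against 5.16%. For the Sp/Klf core CCCGCCC the shares were 28.2% and 37.5%. The intervals cover counting error only. The share of all peaks fell within the members' Wilson interval for Tcf/Lef, ETS, Runx and Sp/Klf, and below it for NRF1 and, narrowly, YY1. For YY1 the order depended on the window, since within 50 bp the core was at 2.82% of member summits and 3.14% of all. A match is a run of letters and not a shown site of binding.

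**Figure D5:**
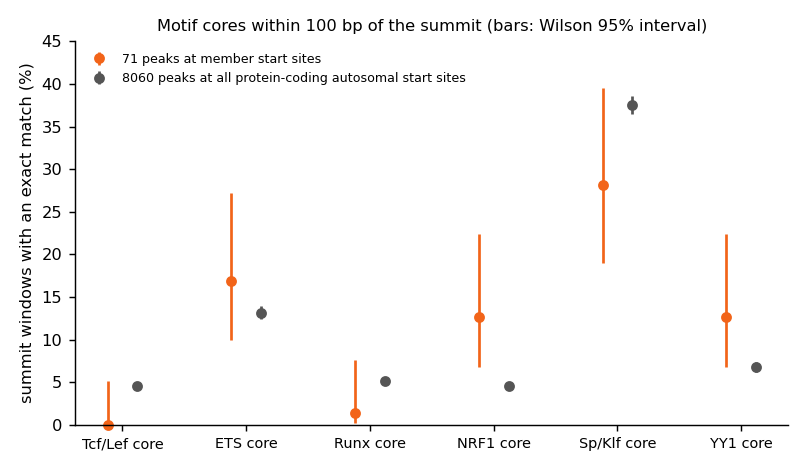
Percentage of summit windows, 100 bp to each side, with an exact match to each motif core, for the 71 peaks at member start sites (orange) and the 8060 peaks at all protein-coding autosomal start sites (grey), with Wilson 95% intervals. The NRF1 core stands at 12.7% in members and 4.55% in all, and the Tcf/Lef core at 0 in members.

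Each core was also read backwards, except that of Sp/Klf, which reads the same. This keeps the base counts but not the number of CG, which differs for NRF1 (GCGTACG backwards) and ETS (TGAAGGC). The backward shares are thus only a partial control of composition. Backwards, the NRF1 core was found at 1.41% of member summits and 0.819% of all, and the ETS core at 2.82% and 2.88%. The backward YY1 core was at 4.23% and 2.07%, the backward Runx core at 4.23% and 1.80%, and the backward Tcf/Lef core at 0% and 1.92%. Of the 5 backward cores those of NRF1, YY1 and Runx had the higher share in members. Members with the NRF1 core were Ndufa4, Ndufa11, Ndufa13, Sdhb, Uqcrc1, Cox6a1, Atp5k, Atp5l and Ndufaf4, with pileups of the strongest peak from 30 to 45. The ETS core was at Ndufa9, Ndufb5, Ndufb9, Ndufs3, Uqcrc1, Cox5b, Cox6b1, Atp5a1, Atp5f1, Atp5h and Sdhaf2 and at the weaker peak of Ndufa13, and Uqcrc1 alone held both cores at its summit.

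After the sequences had been read, the Tcf/Lef core without its first base, TCAAAG, was searched as well. It was found at 5 of the 71 member summits (7.04%), against 14.2% of all 8060, and backwards at 4.23% and 9.48%. The 5 were Ndufs6, Ndufs4 and Ndufv1, which are the 3 tallest member peaks, and Sdhaf1 and Ndufaf3. Over all start-site peaks it was at 22.8% of those with a pileup of 50 or more and 10.0% of the others. In members these shares were 3 of 16 (18.8%) and 2 of 55 (3.64%), both lower than in all peaks. Because this sequence was chosen after the windows were seen, these counts are a description only. The stretch around the summit is printed for Ndufs6 and Ndufs4, the tallest peaks, with TCAAAG or its complement in capitals, for Ndufa9 and Cox6b1 with the ETS core, and for Atp5l and Ndufaf4 with the NRF1 core. In Atp5l and Ndufaf4 the NRF1 core matches on both strands with an overlap, and the later capitals in Ndufaf4 are the Sp/Klf core. Each stretch is from mm9 on the transcribed strand, 5′ to 3′, and stops at annotated exons.
Ndufs6, chr13:73465991-73466172, minus strand: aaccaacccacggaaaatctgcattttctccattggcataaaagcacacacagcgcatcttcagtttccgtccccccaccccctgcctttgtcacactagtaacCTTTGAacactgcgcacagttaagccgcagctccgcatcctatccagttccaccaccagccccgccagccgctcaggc
Ndufs4, chr13:115178303-115178414, minus strand: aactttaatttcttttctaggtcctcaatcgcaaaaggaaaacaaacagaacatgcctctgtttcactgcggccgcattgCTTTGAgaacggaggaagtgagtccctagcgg
Ndufa9, chr6:126799163-126799307, minus strand: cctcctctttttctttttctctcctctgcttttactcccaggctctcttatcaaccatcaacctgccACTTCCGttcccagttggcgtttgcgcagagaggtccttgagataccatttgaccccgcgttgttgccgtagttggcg
Cox6b1, chr7:31411171-31411319, minus strand: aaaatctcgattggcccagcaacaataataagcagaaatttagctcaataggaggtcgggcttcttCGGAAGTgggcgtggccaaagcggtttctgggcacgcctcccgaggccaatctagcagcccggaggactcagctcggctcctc
Atp5l, chr9:44728914-44729114, minus strand: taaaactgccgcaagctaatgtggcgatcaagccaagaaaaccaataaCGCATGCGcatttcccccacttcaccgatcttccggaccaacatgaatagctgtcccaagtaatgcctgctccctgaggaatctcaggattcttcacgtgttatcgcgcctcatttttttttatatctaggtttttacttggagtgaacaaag
Ndufaf4, chr4:24825050-24825229, plus strand: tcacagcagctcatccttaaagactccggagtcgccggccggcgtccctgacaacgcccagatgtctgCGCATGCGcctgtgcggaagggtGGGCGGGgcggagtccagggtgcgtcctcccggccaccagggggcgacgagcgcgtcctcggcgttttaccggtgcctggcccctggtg

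Other genes of the pathway were read from lists outside the rule, beside the 37.5% bound among all protein-coding autosomal genes and the 64.7% among those with CpG-rich start sites. Of 24 genes for assembly, electron carriers and the ATPase inhibitor 20 (83.3%) were bound, with a median pileup of 35. Cycs, which encodes cytochrome c, had 53 fragments and Cyc1, which encodes cytochrome c1 of complex III, 41. The peak at Bcs1l, the chaperone that inserts the Rieske protein, was the tallest of the list, with 318 fragments, 240 bp upstream of its start site. Sco2, Atpaf1, Tmem70 and Atpif1 were not bound. Of 12 genes of the TCA cycle 10 were bound, with pileups from 19 at Suclg2 to 147 at Mdh2, and Idh3b and Dld were not. Of 14 genes for regulators of respiratory genes and for the upkeep and transcription of mitochondrial DNA 11 were bound, with a median pileup of 64. The helicase gene Peo1 had 216 fragments, Pprc1 134 and Esrra 79, while Nrf1 and Gabpa had 38 each. The peak of Peo1 was also within 1 kb of the start site of Mrpl43, a mitochondrial ribosomal protein gene, and that of Gabpa was the one at Atp5j, so neither can be assigned to one gene. The coactivator genes Ppargc1a and Ppargc1b were not bound, nor was Polrmt.

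Inside member genes but beyond 1 kb from their start sites there were 10 peaks in 5 genes, of which 6 were within Atp5o. The annotated span of Atp5o (chromosome 16, 91684643 to 91931932) runs through Itsn1, and these summits lay 101 to 238 kb from its start sites, 4 of them in introns that the 2 genes share. The tallest of them had 458 fragments against a control level of 8.69, so they are not read as peaks of Atp5o. The others were single intron peaks in Ndufa10 (49 fragments), Ndufa4 (56) and Cox5a (26), and an exon peak in Atp5l (43).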

How the data were processed

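Reads had been aligned by the authors to mm9 with Bowtie2 2.2.5. Peaks had been called with MACS2 2.1.1 on fragment pairs, the WT library against the control, keeping 1 fragment per position. The deposited signal (pileup) counts WT fragments that cover a summit. The header states that the larger library is scaled down and that q is not calculated, yet every deposited pileup is whole and every q value present. The deposited ratio (fold enrichment) was read as pileup plus 1 over the local control level plus 1, from which the control level was computed back. The deposited −log10 q values entered only the high-confidence criterion. Each column is one value over both libraries, so no SD is given.

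Start sites were those of all transcripts in GENCODE vM1 (NCBIM37, mm9). For a gene with several peaks the largest pileup was used, and a tie, at Ndufa11, went to the summit nearest a start site, a choice made after the values were seen. It moves the median distance by less than 1 bp. Intervals of pileups are exact Poisson 95% and those of shares Wilson 95%, and both cover counting error only. No test was made, since each group has 1 library. The assignment of summits was tested on simulated data. Calculations used pandas 2.3.3, numpy 2.4.6, scipy 1.17.1 and pysam 0.24.0.

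Named were all unbound members, the 3 largest and 2 smallest pileups per complex, the 5 largest fold enrichments, members with 2 peaks, the 5 summits furthest from a start site, those next to the distance limit, core subunits, isoform pairs, Tcf/Lef core matches and the 5 tallest shared peaks. One result that this rule would name is not reported here. Other named genes, and the summit stretches printed, were chosen after their values were seen. Members and lists were chosen with earlier results of these data known. Alternatives were other distance limits, stricter peaks, other start sites, subunits only and other motif windows.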

Additional observations from a re-analysis of the deposited data

Results flagged for a closer look

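The mitochondrial chromosome, which encodes some subunits of complexes I, III, IV and V, was outside the comparisons and held 9 deposited peaks. Their fold enrichments were from 1.82 to 2.60, with 0 at the fold minimum of 4. WT pileups of 69 to 227 stood against control levels of 26.0 to 102, so fragments were abundant in both libraries. The tallest, with 227 fragments, had its summit in mt-Co1, and others lay in mt-Nd2, mt-Co2, mt-Nd5, mt-Cytb and the ribosomal RNA genes. They were listed because the caller placed them above the control level.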

How the results depend on the processing

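Across 16 results and 89 values under other settings, 65 stayed within the 95% interval of the reported value and 24 moved outside it. All medians of pileup, fold enrichment and distance stayed within it. With high-confidence peaks only, the share of members was 64.8% and of all genes 33.6%. At a fold minimum of 8 these were 17.6% and 12.1%, with 27.0% in complex I, 0% in complexes II and III, 5.88% in complex IV and 18.8% in complex V, and the share of all genes lay within the Wilson interval of the members (11.1 to 26.7). Counting the nearest start site only gave 61.5% and 32.5%, with 62.2% in complex I and 25% in complex III. Complexes II, III and IV thus fell below all genes at 8-fold, and complex III with the nearest start site. With CpG-rich start sites only, chosen after seeing the data, the shares were 85.7% and 64.7%. The share of all genes alone moved to 35.0% at 500 bp, 39.9% at 2.5 kb and 34.9% with the furthest upstream start site. With 50 bp on each side of the summit the motif shares in members were 9.86% for ETS, 0% for Runx, 18.3% for Sp/Klf and 2.82% for YY1, and with 200 bp YY1 was at 26.8%. Over all start-site peaks YY1 was at 3.14% with 50 bp, above the members, and at 13.0% with 200 bp. The shorter Tcf/Lef core, chosen after seeing the data, was at 7.04%. Motif shares change by construction with the window, and shares with the fold minimum. The smallest member peak had 20 fragments, and the effect of depth on the calls was not tested. No paired analysis was possible because each group has 1 library.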

Other observations

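The X-linked subunit genes Ndufa1, Ndufb11 and Cox7b were left out by the rule, which takes autosomal genes. Ndufb11, a complex I accessory subunit, had a start-site peak of 184 fragments and a fold enrichment of 28.8, against at most 120 and 18.9 in the autosomal members. Ndufa1 and Cox7b had no peak within 1 kb of a start site.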
